A study of Mus musculus with 6 samples.

Results

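The genes described here encode the proteins of the mitochondrial ribosome, and their members were taken as the gene symbols that start with Mrpl (large subunit) or Mrps (small subunit) followed by a digit. Of 14744 gene symbols in the expression table, 80 met this rule. A normalized read count of at least 10 in at least 3 of the 6 libraries was reached by 79 of the 80, as by 11296 of all 14744 symbols. The 79 were 47 Mrpl genes, 29 Mrps genes and 3 pseudogene symbols. The symbol outside the filter, the pseudogene Mrps36-ps2, reached 10 in 1 library, with a highest value of 13.3. Just inside it, the pseudogenes Mrps36-ps1 and Mrpl48-ps reached 10 in 4 and in 5 libraries. Pseudogene symbols share sequence with their parent genes, and their values are uncertain. Mrpl53 and Mrpl58 had no row under those symbols, and the release factor homologue Mrpl58 was found under its older symbol Ict1.

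The study asked what the transcription factor Bach2 does in T follicular helper (Tfh) cells, which drive B cells of the germinal center to mature. Tfh cells, sorted as CD4+B220-CD44+PD-1+CXCR5+, came from the mesenteric lymph nodes of C57BL/6 mice (C57BL/6J in the study's methods), with 10000 to 30000 cells per library. There were 3 libraries labelled WT and 3 labelled Bach2-cKO, the latter from Bach2 fl/fl Cd4-cre mice. For its WT group the study describes littermates that carry Cd4-Cre, so Cre may be shared by both groups. The Cd4 promoter drives Cre in developing T cells before the CD4 and CD8 lineages part, so the deletion is not limited to Tfh cells. Age is not given in the labels, although the study states an age range for the mice of the figure that holds the sequencing. The labels give replicate numbers but do not say whether the libraries came from separate mice, so the p-values measure the spread between these samples, which may be technical.

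Mitochondria translate a small set of membrane proteins of the respiratory chain on their own ribosomes. The ribosomal RNAs are made from mitochondrial DNA, whereas all proteins of both subunits are encoded in the nucleus, made in the cytosol and imported. T cells that are activated and divide enlarge their mitochondria and need this translation to keep the respiratory chain supplied.

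The values are read counts per gene divided by a size factor for each library. They summed to between 7361229 and 8135325 per library, and the reads recovered from 5 of the libraries ranged from 5045131 in Bach2-cKO replicate 1 to 10987752 in Bach2-cKO replicate 2. WT replicate 1 stood apart, with a value above 0 for 11648 genes, whereas each of the other 5 libraries had between 13111 and 13567 such genes. Log2 fold changes are Bach2-cKO minus WT on the log2(value + 1) scale, which understates the change of low genes, and they were tested over all 11296 genes with limma and Benjamini-Hochberg adjustment.

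The level of Bach2 itself was not lower in the libraries labelled Bach2-cKO. Its normalized read counts were 233, 222 and 105 in the WT libraries and 399, 763 and 591 in the libraries labelled Bach2-cKO, so the groups did not overlap and Bach2 was higher where it was labelled deleted (log2 fold change 1.68, SE 0.37, limma adjusted p = 0.141). A count over the whole gene does not show whether the floxed part is present, and which exons that part holds was not analysed here. Foxp3, the regulator of Treg cells, whose formation is known to need Bach2, was 222, 315 and 344 in WT against 47.3, 140 and 91.0, lower in the libraries labelled Bach2-cKO with separate groups. From these same libraries, the study reports more IL-4 and Gata3 and less IFN-gamma, Il17f and Foxp3 mRNA in Bach2-deficient Tfh cells. Its flow cytometry, a separate measure, found a larger share of cells secreting IL-4 and a smaller share secreting IFN-gamma. An exchange of labels was not tested, and directions are given as those of the libraries labelled Bach2-cKO. Genes of the sorting markers CD4, CD44, PD-1 and CXCR5 were above 0 in every library. Cd4 lay between 2407 and 2792 in WT and between 3341 and 4131 in the libraries labelled Bach2-cKO. Cd44 was 1090, 1776 and 1741 in WT against 3856, 2615 and 2313 (log2 fold change 0.93, limma adjusted p = 0.146), so that for Cd4 and Cd44 the groups were separate, with WT lower. Cxcr5 was 1613, 1444 and 2039 in WT against 2028, 1271 and 2207, and Pdcd1 was 2708, 1594 and 2403 against 2159, 1462 and 1927, so that for both genes the groups overlapped. A list of 9 Tfh and general T cell markers, led by Sh2d1a, summed to 30835, 31601 and 41954 in WT against 28238, 22572 and 29216, and 2 of them were lower (Cd3e and Icos) and 3 higher (Cd4, Cd44 and Bcl6) at an unadjusted limma p under 0.05. Cd3e, which marks all T cells, had a mean of 10732 in WT and 5304 in the libraries labelled Bach2-cKO. Bcl6, the regulator that defines Tfh cells, was higher there with separate groups, at 436, 342 and 501 in WT against 792, 818 and 537.

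The mitoribosomal genes lay lower in the libraries labelled Bach2-cKO, but no single gene passed the test. The median log2 fold change of the 79 genes was -0.26, against 0.08 for all 11296 genes. It stayed below 0 with quantile normalization (-0.215) and with libraries rescaled to the same total (-0.19). Of the 79 genes, 59 had a log2 fold change below 0 (45.2% of all genes did), and the values ran from -1.08 to 0.49. With limma, 0 of the 79 passed the study's thresholds of adjusted p 0.01 and a 2-fold change (0% of all genes), and 0 passed adjusted p 0.05 (0% of all genes). The smallest adjusted p among them was 0.151. At an unadjusted limma p under 0.05, 16 were lower, which is 20.3% of the 79 against 10.2% of all genes, and 0 were higher, against 10.1% of all genes. On recovered reads of 5 libraries, without WT replicate 1, edgeR called 0 of the 79 at adjusted p 0.05 (0 of all genes), with 10 lower at an unadjusted p under 0.05 (8.77% of all genes). DESeq2 on the same reads called 0 of the 79 at adjusted p 0.05, where it called 368 of all genes, with 11 lower at an unadjusted p under 0.05 (9.45% of all genes). At the study's thresholds DESeq2, the tool of the study, called 0 of the 79 and 90 of all genes on these reads. The groups did not overlap for 22 genes that were lower (27.8%, against 12.2% of all genes) and for 1 that was higher (1.27%, against 14.6% of all genes). With quantile normalization this split was 19 lower and 4 higher (12.2% and 13.4% of all genes). After a smooth trend in transcript length and GC content was removed from each library it was 14 lower and 4 higher (12.3% and 8.89% of all genes), and the median was -0.25 against -0.04 for all genes. An exact permutation test of 3 against 3 libraries cannot go below p = 0.1 and was not used. In such bulk libraries, fewer cells of a type and less RNA per cell cannot be told apart.

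**Figure D1:**
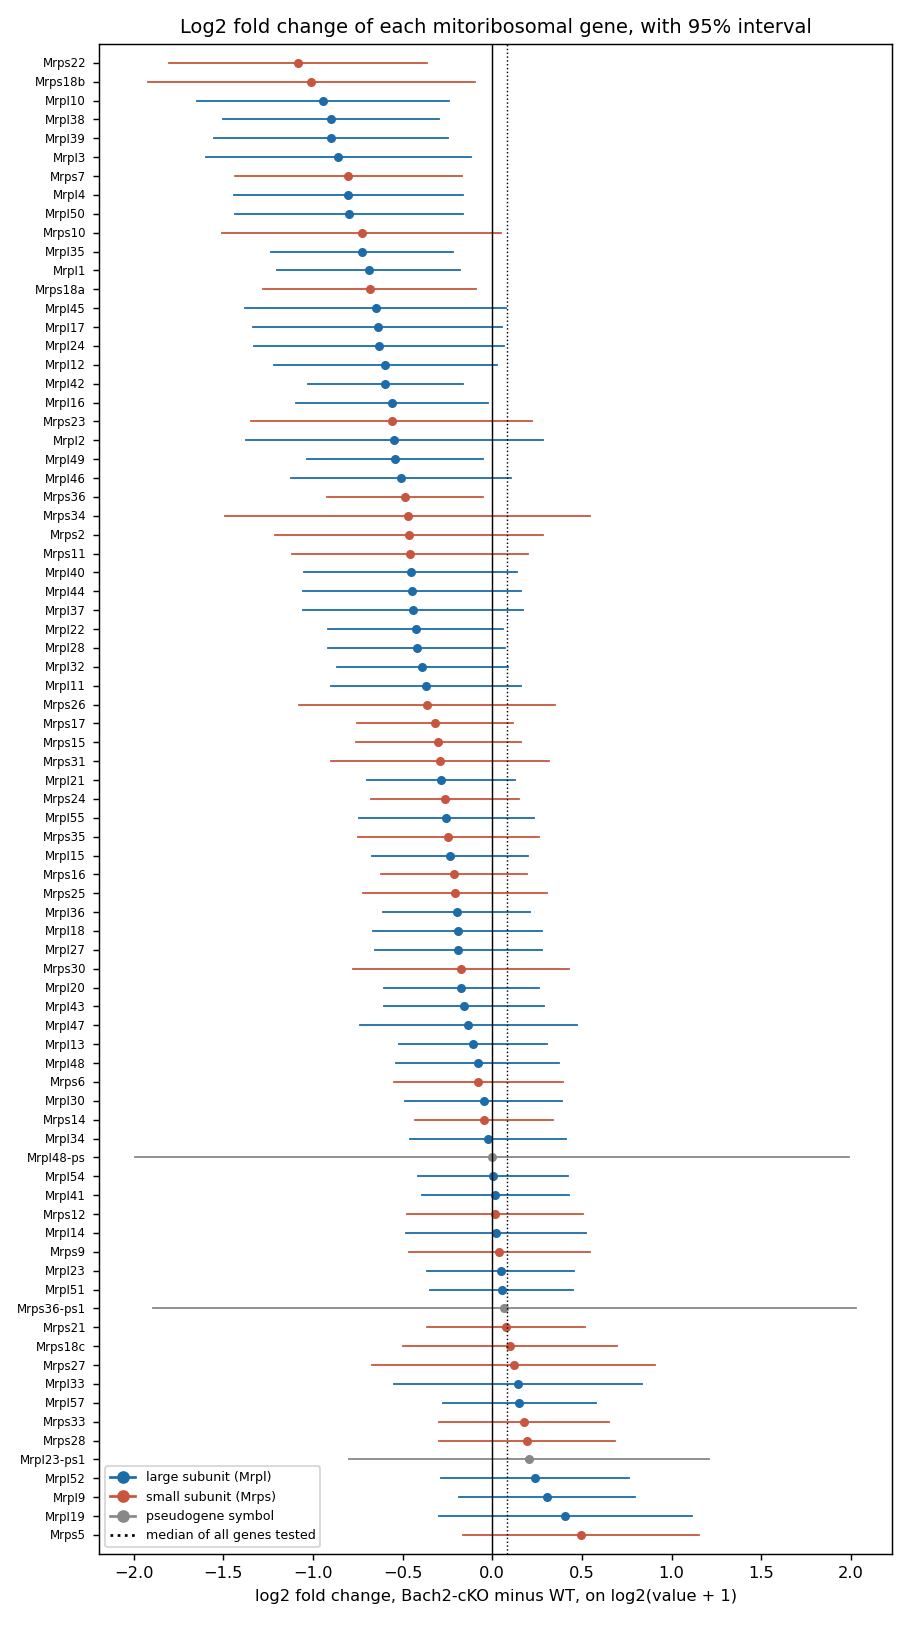
Log2 fold change (x axis, Bach2-cKO minus WT on log2(value + 1)) of each of the 79 mitoribosomal genes (y axis), with limma's 95% confidence interval as a bar and colors for the subunit named by the symbol; the dotted line is the median of all genes tested. The 59 genes below 0 run down to -1.08 for Mrps22, and the interval lies wholly below 0 for 16 genes.

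The counts depended on single libraries. Without Bach2-cKO replicate 3, 29 genes were lower (14.0% of all genes were) and 2 higher (13.1%) at an unadjusted limma p under 0.05, 45 were lower without overlap (23.0% of all genes), and 4 passed adjusted p 0.05, as did 507 of all 11296 genes, so that the members' share lay near that of all genes. These were Mrpl3, Mrpl39, Mrpl45 and Mrpl4, the last named after its values were seen. The count lower at an unadjusted p under 0.05 was 6 without Bach2-cKO replicate 1 (5.36% of all genes) and 8 without Bach2-cKO replicate 2 (5.92%). Leaving out WT replicate 2 gave 41 genes lower without overlap (18.8% of all genes). Without WT replicate 1, the library that stood apart, 11 were lower at an unadjusted p under 0.05 (9.43%), 23 were lower without overlap (18.1%) and the median was -0.21. Genes higher without overlap were 5 without Bach2-cKO replicate 3 (27.2% of all genes), 4 without WT replicate 2 (21.6%) and 2 without WT replicate 3 (19.2%). They were 3 without WT replicate 1 (20.5%), Bach2-cKO replicate 1 (17.0%) or Bach2-cKO replicate 2 (17.0%). When limma estimated a weight for each library, 24 of the 79 genes passed adjusted p 0.05, 23 of them lower and Mrps28 higher, as did 4168 of all 11296 genes.

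The summed level of the group was compared by library. The 79 genes together took 1.04%, 0.915% and 0.952% of the normalized reads in the WT libraries, and 0.804%, 0.879% and 0.922% in the libraries labelled Bach2-cKO. The means were 0.970% ± 0.066 (SD, n = 3) and 0.869% ± 0.060 (SD, n = 3), and Bach2-cKO replicate 3 lay above WT replicate 2, so the groups overlapped. WT replicate 1 held the highest value for 41 of the 79 genes (26.7% of all genes had theirs there), and Bach2-cKO replicate 1 held the lowest for 45 (21.3% of all genes). Relative to each gene's mean over the 6 libraries, the median gene of the 79 was at 0.26, 0.00 and 0.16 in the WT libraries and at -0.32, -0.14 and 0.00 in the others on the log2 scale. WT replicate 2 and Bach2-cKO replicate 3 were thus alike, and the groups were set apart by the other 4 libraries.

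**Figure D2:**
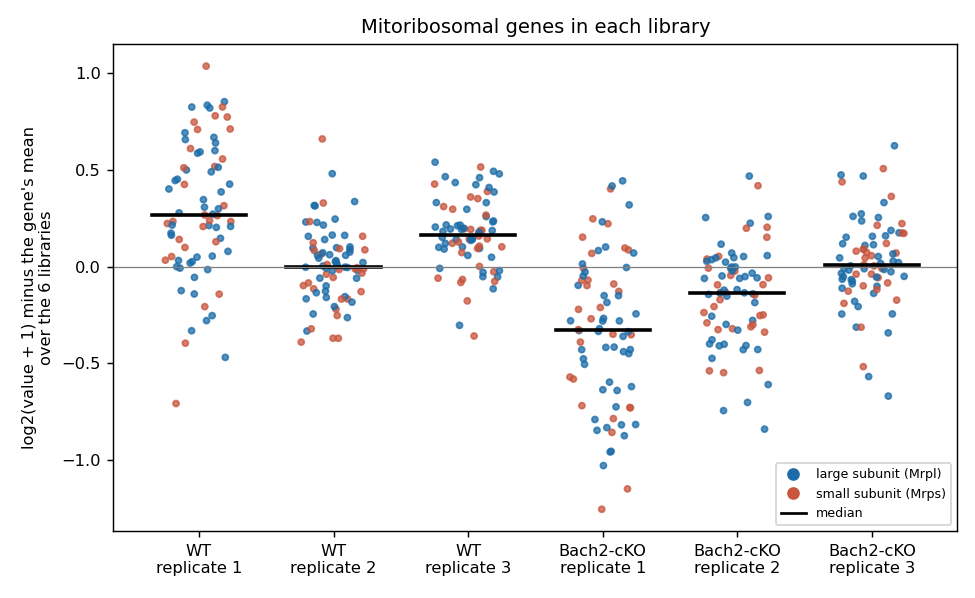
Each point is 1 of the 76 mitoribosomal genes that are not pseudogene symbols; the y axis gives its log2(value + 1) in a library minus its mean over the 6 libraries, the x axis the library, and the black line the median. Bach2-cKO replicate 1 lies lowest and WT replicate 1 highest, with WT replicate 2 and Bach2-cKO replicate 3 near 0.

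Promoters are shown for the members at both ends of the order of log2 fold changes, to set the members that lay lower together beside those that did not. Promoters from RefSeq (build GRCm38.p6), of 250 bases before to 50 after the start, were matched for 67 of the 80 symbols. No entry was matched for Mrpl4, Mrpl13, Mrpl15, Mrpl19, Mrpl38, Mrpl54, Mrps28, Mrps34, Mrps35 and the 4 pseudogenes. The 150 bases before the start are printed 5′ to 3′ on the gene's strand, with capitals marking any of the motifs named in the next paragraph. Of the 6 lowest and the 6 highest, those with an entry are given, the lowest first.
Mrps22, chr9:98601680-98601829, minus strand: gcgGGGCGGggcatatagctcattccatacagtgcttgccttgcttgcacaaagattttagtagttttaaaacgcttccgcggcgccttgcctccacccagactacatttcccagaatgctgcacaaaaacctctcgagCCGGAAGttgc
Mrps18b, chr17:35916441-35916590, minus strand: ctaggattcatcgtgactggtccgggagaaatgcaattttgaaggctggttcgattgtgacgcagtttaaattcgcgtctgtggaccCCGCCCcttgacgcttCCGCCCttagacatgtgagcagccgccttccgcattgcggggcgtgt
Mrpl10, chr11:97041432-97041581, plus strand: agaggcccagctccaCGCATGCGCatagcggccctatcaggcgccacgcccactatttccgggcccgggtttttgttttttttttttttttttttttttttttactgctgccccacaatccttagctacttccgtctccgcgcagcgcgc
Mrpl39, chr16:84735245-84735394, minus strand: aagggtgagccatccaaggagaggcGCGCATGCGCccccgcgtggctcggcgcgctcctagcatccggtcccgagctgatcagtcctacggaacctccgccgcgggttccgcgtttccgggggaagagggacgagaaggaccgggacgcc
Mrpl3, chr9:105053118-105053267, plus strand: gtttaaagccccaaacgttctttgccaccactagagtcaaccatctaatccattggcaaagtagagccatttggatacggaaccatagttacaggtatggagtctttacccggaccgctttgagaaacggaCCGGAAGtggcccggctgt
The highest follow.
Mrps5, chr2:127587276-127587425, plus strand: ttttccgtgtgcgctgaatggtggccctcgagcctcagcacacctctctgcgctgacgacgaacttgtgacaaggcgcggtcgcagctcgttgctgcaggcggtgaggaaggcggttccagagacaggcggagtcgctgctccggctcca
Mrpl9, chr3:94443186-94443335, plus strand: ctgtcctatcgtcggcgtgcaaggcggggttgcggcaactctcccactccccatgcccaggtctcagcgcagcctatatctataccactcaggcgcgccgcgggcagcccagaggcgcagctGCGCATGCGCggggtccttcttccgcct
Mrpl52, chr14:54426759-54426908, plus strand: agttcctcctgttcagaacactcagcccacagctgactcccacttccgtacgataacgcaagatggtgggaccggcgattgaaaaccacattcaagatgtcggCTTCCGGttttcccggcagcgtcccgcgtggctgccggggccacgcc

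The motifs were searched on both strands of the whole 300 bases. All 67 members passed the filter on low values, whereas the genes they are set against were not filtered by expression. Shares among expressed genes only were not computed. The ETS motif CCGGAAG was held by 24 of the 67 member promoters (35.8%, against 9.93% of the promoters of all 27025 genes), the YY1 motif AAGATGGC by 12 (17.9%, against 3.19%) and the NRF1 core GCGCATGCG by 7 (10.4%, against 1.95%). With 1 base left free, GCGCANGCG, which includes the NRF1 core, was held by 16 (23.9%, against 7.03%). At least 1 of ETS, YY1 and GCGCANGCG stood in 42 of the 67, against 17.8% of all genes. The SP1 motif GGGCGG was held by 34 (50.7%, against 38.2%), the E-box CACGTG by 5 (7.46%, against 8.09%), the TATA box TATAAA by 5 (7.46%, against 15.7%) and the Bach or AP-1 motif TGAGTCA by 2 (2.99%, against 5.95%). The median log2 fold change was -0.17 for members that held the ETS motif and -0.42 for those that did not, and -0.45 and -0.29 for the YY1 motif. It was -0.64 and -0.27 for the NRF1 core, and -0.41 and -0.29 with 1 base left free. It was -0.28 and -0.37 for SP1, -0.20 and -0.31 for the E-box, -0.32 and -0.30 for the TATA box, and 0.32 and -0.32 for the Bach or AP-1 motif with its 2 members. In the windows printed above, Mrps22, Mrpl3 and, at the other end of the order, Mrpl52 carried ETS. Mrpl10, Mrpl39 and, at the other end, Mrpl9 carried the NRF1 core. Mrps22 and Mrps18b carried SP1. Over the whole 300 bases Mrps18b also held ETS and the NRF1 core, and Mrps5, at the other end, held SP1 and the Bach or AP-1 motif. A match describes letters and is not evidence of binding.

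By symbol, 11 of the 47 Mrpl genes and 5 of the 29 Mrps genes were lower at an unadjusted limma p under 0.05 (23.4% and 17.2%, against 10.2% of all genes). Their median log2 fold changes were -0.37 and -0.26. This split is not exactly that of the subunits. Mrps18a, among the 5 lower genes, and Mrps30 count as Mrps genes here, although both sit in the large subunit. The difference between Mrpl and Mrps genes was not tested. The gene of lowest log2 fold change was Mrps22, a protein of the small subunit. Its normalized read counts were 761, 556 and 633 in the WT libraries and 185, 356 and 425 in the libraries labelled Bach2-cKO. Every WT value exceeded every other value, and Bach2-cKO replicate 1 was the lowest (log2 fold change -1.08, SE 0.32, limma adjusted p = 0.151).

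Mrps18b is 1 of 3 paralogs of the bacterial protein S18, which occupy different places in the mitoribosome. Its counts were 186, 200 and 155 in WT and 56.2, 86.4 and 142 in the libraries labelled Bach2-cKO (log2 fold change -1.01, SE 0.41, limma adjusted p = 0.211). Mrps18a, the paralog built into the large subunit despite its symbol, gave 1301, 885 and 886 against 460, 667 and 799 (log2 fold change -0.68). For these paralogs the groups did not overlap, although the gap for Mrps18b was small. The remaining paralog, Mrps18c, gave 831, 681 and 854 against 964, 1085 and 567, with overlapping groups. Its log2 fold change of 0.10 turned negative when WT replicate 2, Bach2-cKO replicate 1 or Bach2-cKO replicate 2 was left out, and was 0.52 after removal of that length and GC trend and 0.36 with library weights.

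The stalk of the large subunit, which recruits translation factors, is built from Mrpl10 and Mrpl12. Mrpl10 had counts of 626, 371 and 476 in WT and 177, 257 and 340 in the libraries labelled Bach2-cKO (log2 fold change -0.94, SE 0.32, limma adjusted p = 0.164). Mrpl12 had counts of 479, 314 and 401 against 207, 280 and 300 (log2 fold change -0.60, SE 0.28, limma adjusted p = 0.258). In both genes the groups were separate, and the nearest pair was WT replicate 2 and Bach2-cKO replicate 3.

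Other large subunit genes with low values were Mrpl38, Mrpl39 and Mrpl3. Mrpl38, of the central protuberance, gave 674, 445 and 467 in WT against 244, 344 and 256 (log2 fold change -0.90, SE 0.27, limma adjusted p = 0.151). With library weights its log2 fold change was -0.535. Mrpl39 gave 1098, 827 and 983 against 344, 523 and 760 (log2 fold change -0.90, SE 0.29, limma adjusted p = 0.159). Mrpl38 and Mrpl39 had groups without overlap, and Mrpl3 did not, because Bach2-cKO replicate 3 reached 619 while WT replicate 3 was at 542. The other values of Mrpl3 were 782 and 686 in WT and 268 and 293 in the libraries labelled Bach2-cKO (log2 fold change -0.86). Mrpl45, which holds the tunnel exit to the inner membrane, showed the same pattern, at 628, 683 and 726 against 303, 354 and 749 (log2 fold change -0.65, but -0.40 without Bach2-cKO replicate 1 and -1.05 without Bach2-cKO replicate 3). Without Bach2-cKO replicate 3 the limma adjusted p was 0.0408 for Mrpl3, 0.0475 for Mrpl39 and 0.0446 for Mrpl45, in a fit that called 507 of all 11296 genes at adjusted p 0.05.

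Some members were higher in the libraries labelled Bach2-cKO. Mrps5, of the small subunit, gave 175, 285 and 281 in WT against 378, 281 and 368 (log2 fold change 0.49, SE 0.30, limma adjusted p = 0.350), and the groups overlapped. Mrpl19 gave 203, 315 and 228 against 234, 336 and 435 (log2 fold change 0.41), also with overlap. Mrpl9 was the 1 gene that was higher with separate groups, at 442, 406 and 470 against 609, 497 and 528 (log2 fold change 0.31, SE 0.22, limma adjusted p = 0.424). After removal of that length and GC trend the log2 fold change was 0.15 for Mrps5, 0.02 for Mrpl19 and 0.57 for Mrpl9. Mrpl52, Mrpl23-ps1 and Mrps28 followed with log2 fold changes of 0.24, 0.20 and 0.20 (0.44, 0.47 and 0.28 after that step) and overlapping groups. With library weights the value was 0.184 for Mrpl9, 0.369 for Mrpl52, 0.399 for Mrpl23-ps1 and 0.451 for Mrps28. Leaving out 1 library moved each of these genes' log2 fold changes except that of Mrpl9 by over 1.5 times. Mrps5 was at 0.26 without WT replicate 1, and Mrpl19 at 0.64 without Bach2-cKO replicate 1 and 0.20 without Bach2-cKO replicate 3. Mrpl52 was at 0.13 without WT replicate 2, 0.08 without Bach2-cKO replicate 1 and 0.47 without Bach2-cKO replicate 3. Mrpl23-ps1 was at 0.07 without Bach2-cKO replicate 2, and Mrps28 at 0.36 without WT replicate 1 and 0.06 without WT replicate 3.

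**Figure D3:**
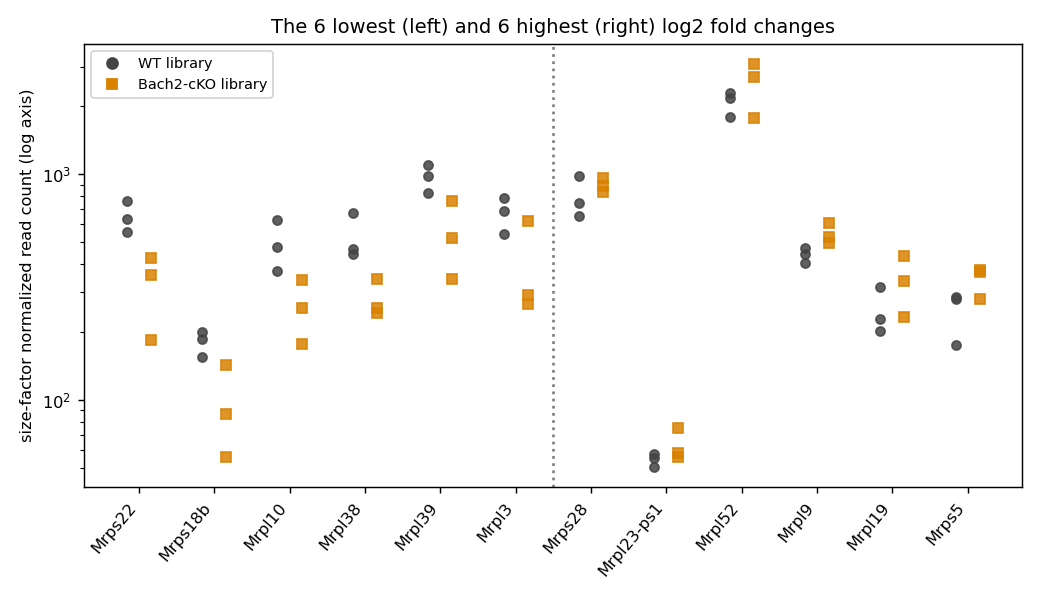
Size-factor normalized read count (y axis, log scale) of the 6 genes with the lowest and the 6 with the highest log2 fold change (x axis), 1 point per library, circles for WT and squares for Bach2-cKO. The groups are separate for Mrps22, Mrps18b, Mrpl10, Mrpl38, Mrpl39 and Mrpl9 and overlap for the rest.

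Further members with known places in the ribosome lay between these. Mrps12, of the decoding center, gave 1168, 763 and 1104 in WT against 952, 1038 and 1032 (log2 fold change 0.02), a value that turned negative without WT replicate 2, Bach2-cKO replicate 2 or Bach2-cKO replicate 3. Mrpl37 and Mrps30 are paralogs that both sit in the large subunit. Mrpl37 gave 615, 504 and 490 against 293, 377 and 545 (log2 fold change -0.44, but -0.23 without Bach2-cKO replicate 1 and -0.68 without Bach2-cKO replicate 3). Mrps30 gave 545, 340 and 361 against 304, 380 and 402 (log2 fold change -0.17, but 0.04 without WT replicate 1, -0.30 without WT replicate 2 and -0.05 without Bach2-cKO replicate 1). The groups overlapped in each of these 3 genes.

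Per kilobase of longest transcript, the levels of the 76 genes that are not pseudogene symbols spanned a wide range, from 42.1 to 4626 normalized reads with a median of 329. The highest were Mrps21 with 4626, Mrpl52 with 2696 and Mrpl54 with 2126 normalized reads per kilobase. The log2 fold changes of Mrps21 (0.08) and Mrpl54 (0.00) were near 0 (0.26 and -0.14 after removal of that length and GC trend). That of Mrps21 turned negative without WT replicate 1, and that of Mrpl54 without WT replicate 1, WT replicate 2, Bach2-cKO replicate 2 or Bach2-cKO replicate 3. Mrps34, of the small subunit, had the lowest level, 42.1 normalized reads per kilobase, and gave normalized read counts of 130, 76.3 and 71.7 in WT against 50.3, 59.6 and 88.0 (log2 fold change -0.47, but -0.20 without WT replicate 1 and -0.30 without Bach2-cKO replicate 1). The pseudogenes Mrpl48-ps and Mrps36-ps1 lay below it at 20.4 and 39.0 normalized reads per kilobase. The order of levels per kilobase was nearly the same in both groups (Spearman's rho 0.97 across 76 genes, which are not independent). The ratio of highest to lowest was 110. Both ends depended on the transcript used: per kilobase of principal transcript, an alternative chosen after seeing the data, Mrpl52 was highest with 5521 normalized reads and Mrpl19 lowest with 58.3, while Mrps21 had 4626 and Mrps34 86.4, a ratio of 94.7.

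Positions were also shared. Of the 76 genes, 30 had the start of an opposite-strand coding gene of the table within 1000 bases of their own start (39.5%, against 14.1% of all 13322 coding genes). Mrps11 and Mrpl46 form such a pair with each other on chromosome 7, with a start distance of -412 bases, where a negative sign means that the genes overlap. Mrps18b starts 45 bases from Ppp1r10 on chromosome 17, without overlap of these genes. The 76 genes lay on 17 chromosomes, with 10 on chromosome 11. Another annotated gene overlapped 40 of the 76, a count that was not made for all genes. Among the 40 were Mrps22, Mrps18b, Mrpl10, Mrpl3 and Mrpl45, and also the higher members Mrpl9, Mrpl19 and Mrps28. Whether counting used strand is not given in the sources used here, so reads of such pairs may be shared and these values are uncertain.

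Coding length, looked at after the data had been seen, went with the log2 fold change. It was taken from the principal transcript of each gene. Across the 76 genes Spearman's rho was -0.40 for coding length, whereas across 10684 genes with a coding length it was 0.33. For the members it was weaker with the length of the longest transcript (-0.15) and of the principal transcript (-0.19). For the 26 shortest, with 195 to 480 coding bases, the median log2 fold change was -0.04. For the 25 of middle length, with 498 to 756 bases, it was -0.46, and for the 25 longest, with 762 to 1326 bases, it was -0.45. All genes of these same lengths had medians of -0.10, -0.22 and -0.15. Of these genes, 15.0%, 20.1% and 17.2% were lower without overlap of the groups, and 4.91%, 6.23% and 10.7% higher. Among the members, 6, 9 and 7 were lower without overlap, and 0, 0 and 1 higher. With a smooth trend in transcript length and GC content removed from each library, rho was -0.43 for coding length, -0.40 for the longest and -0.32 for the principal transcript. Longer members also had lower normalized read counts (rho -0.68), and the part of level in this relation was not tested. The relation differed between libraries. Against each gene's mean over the 6 libraries, rho with coding length was 0.41, 0.34 and 0.05 in the WT libraries and -0.45 and -0.44 in Bach2-cKO replicates 1 and 2, but 0.40 in Bach2-cKO replicate 3. These correlations are across genes of the same libraries and carry no p.

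**Figure D4:**
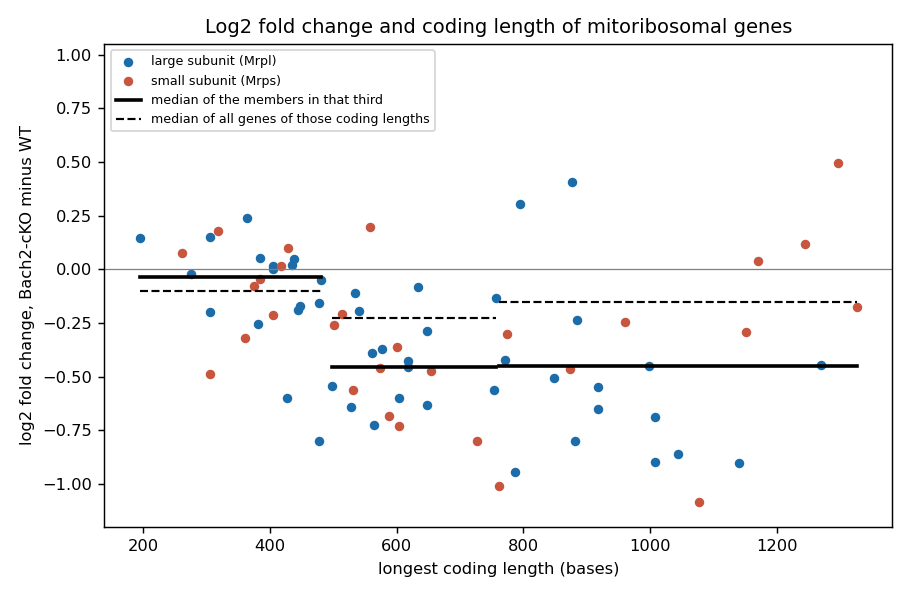
Log2 fold change (y axis, Bach2-cKO minus WT) of the 76 mitoribosomal genes against coding length in bases (x axis), in colors by the subunit that the symbol names. Coding length is that of the principal transcript, although the axis is labelled as the longest. Solid lines are the medians of the shortest, middle and longest members, -0.04, -0.46 and -0.45, and dashed lines those of all genes of the same lengths.

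Proteins of the mitoribosome under other symbols were 6 of 7 listed genes in the table, with a median of -0.23 for the log2 fold change and 1 lower and 0 higher at an unadjusted limma p under 0.05. In this and the following lists these counts stand against 10.2% of all genes lower and 10.1% higher. The lower gene was Ptcd3, of the small subunit, at 534, 790 and 658 in WT against 510, 342 and 322 (log2 fold change -0.77, SE 0.27, limma adjusted p = 0.172, and -0.45 after removal of that length and GC trend). The groups of Ptcd3 did not overlap. Dap3, of the small subunit, had a log2 fold change of -0.40, and -0.81 after that step. Gadd45gip1, of the large subunit, had -0.49, and -0.58 after it, and the groups of both genes overlapped. Without WT replicate 1 these values were -0.24 for Dap3 and -0.30 for Gadd45gip1, and without Bach2-cKO replicate 1 that of Dap3 was -0.25. Aurkaip1 (0.05), Chchd1 (0.10) and Ict1 (-0.07) were near 0, though Chchd1 was at 0.40 after that step, and the first 2 turned negative without Bach2-cKO replicate 3 and without Bach2-cKO replicate 2, respectively.

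The factors that load and release the mitoribosome gave 16 tested genes of 20, with a median of -0.08 (0.01 after each library was freed of a smooth trend in transcript length and GC content) and 2 lower and 0 higher at an unadjusted limma p under 0.05. Mrrf, the ribosome recycling factor, was at 386, 308 and 310 in WT and at 93.1, 157 and 149 in the libraries labelled Bach2-cKO (log2 fold change -1.35, SE 0.32, limma adjusted p = 0.141). The highest of the latter lay well below the lowest WT value of 308. Among 26 tested genes of 29 for mitoribosome assembly and rRNA modification, 2 were lower and 3 higher (median -0.15), and Fastkd2, an RNA-binding protein of assembly, gave 453, 239 and 407 against 155, 184 and 195 (log2 fold change -0.99, limma adjusted p = 0.158). Of 20 mitochondrial aminoacyl-tRNA synthetases and related enzymes, 2 were lower and 2 higher (median 0.02, and -0.01 after the same step), with Rars2, which charges arginine tRNA, at 608, 479 and 435 against 266, 241 and 358 (log2 fold change -0.82, and -0.44 after that step, limma adjusted p = 0.159). The groups of Mrrf, Fastkd2 and Rars2, each of smallest p in its list, were separate. With separate groups, 3 translation factors were lower and 1 higher, and 3 assembly genes lower and 5 higher. For the synthetases this was 2 lower and 4 higher. Higher with separate groups at an unadjusted limma p under 0.05 were Rpusd4, Trub2 and Afg3l2 for assembly (log2 fold changes 1.64, 0.99 and 0.75). Among the synthetases these were Lars2 and Vars2 (0.67 and 1.19). After that step the values were 1.81, 0.69, 0.38, 0.35 and 0.43.

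Of 7 genes of mitochondrial transcription, 1 was lower and 0 higher (median -0.47, and -0.24 after removal of that length and GC trend). It was Tefm, the elongation factor, at 338, 162 and 239 against 78.3, 115 and 192, with overlap (log2 fold change -0.97, and -0.59 after that step, limma adjusted p = 0.233). Regulators of mitochondrial biogenesis had 9 tested genes of 10, with 0 lower and 3 higher (median 0.66, but 0.10 after the same step). Yy1, the gene of smallest p in this list, gave 320, 588 and 534 in WT against 1073, 963 and 675 (log2 fold change 0.93, SE 0.29, limma adjusted p = 0.156). Its groups were separate, with a log2 fold change of 0.44 after that step. Motifs named for Yy1, Sp1 and Nrf1 were counted above. Sp1 had a log2 fold change of 0.66 with separate groups, and Nrf1 of 0.18 with overlap (0.32 and -0.05 after that step). A link between motifs and these genes was not tested. None of the 13 mitochondrially encoded proteins listed had a row, and they were not analysed here.

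**Figure D5:**
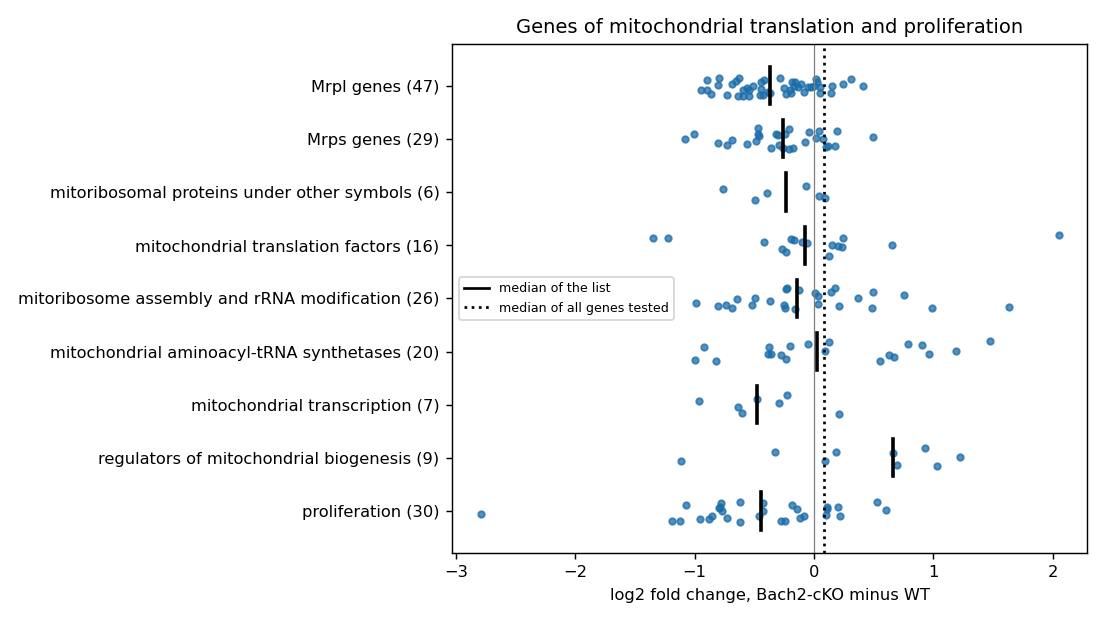
Log2 fold change (x axis, Bach2-cKO minus WT) of each tested gene in the Mrpl and Mrps genes and in lists of related genes (y axis, number of genes in brackets), with the median as a black line and the median of all genes as a dotted line. The Mrpl and Mrps medians are -0.37 and -0.26, and that of the regulators of mitochondrial biogenesis is 0.66; after removal of that length and GC trend they are -0.33, -0.22 and 0.10.

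For comparison, genes of the ribosomes of the cytosol and of the respiratory chain were counted. Cytosolic ribosomal protein genes were those matched by symbol in the table, so any without a matched row are not covered. Of these 35 genes, all tested, 0 were lower and 2 higher at an unadjusted limma p under 0.05. The median log2 fold change was 0.37 (0.57 after removal of that length and GC trend). Their summed normalized read counts were 328961, 313006 and 305187 in WT against 527722, 485913 and 279006, so that Bach2-cKO replicate 3 lay below every WT library. Of 76 nuclear genes of oxidative phosphorylation, whose complexes hold the products of mitochondrial translation, 9 were lower (11.8%, against 10.2% of all genes) and 1 higher (1.32%, against 10.1%), with a median of 0.06 (0.22 after the same step). The differences between these groups and the mitoribosomal genes were not tested.

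Markers of proliferation were counted as well. Of 30 tested, 7 were lower and 1 higher at an unadjusted limma p under 0.05 (median -0.45), while the groups were separate for 1 lower and 1 higher (3.33% each, against 12.2% and 14.6% of all genes). Their summed normalized read counts were 51511, 23203 and 37226 in WT and 26189, 21043 and 32127 in the libraries labelled Bach2-cKO, with Pcna the most abundant. WT replicate 1, WT replicate 3 and Bach2-cKO replicate 3, in this order, had the 3 highest sums, as they had the 3 highest shares of reads from the mitoribosomal genes. Bach2-cKO replicate 1, with the lowest of these shares, was above WT replicate 2 and Bach2-cKO replicate 2 in the proliferation sum. The part of proliferation in the result was not tested.

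Markers of other cells were counted at the same unadjusted p. The 5 Th17 markers summed to 1486, 635 and 340 in WT against 176, 103 and 99.2, with 3 of 4 tested genes lower and 0 higher, and Ccr6 was the most abundant. Il17f was 645, 183 and 64.5 against 13.3, 4.02 and 5.11, with separate groups. Il17a was at 0 in WT replicate 1 and Bach2-cKO replicate 2, and Il23r in Bach2-cKO replicate 3. The 6 CD8 or NK markers summed to 6334, 4166 and 3569 against 1437, 3140 and 1982, with 2 of 6 lower and 0 higher, led by Nkg7, and Ncr1 was at 0 in WT replicate 1. The 4 Treg markers summed to 5030, 5799 and 7052 against 6308, 5043 and 4267, with 1 of 4 lower (Foxp3) and 0 higher, led by Ikzf2. These lists shared the direction of the mitoribosomal genes to differing degrees, and their part in the result was not tested.

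Of 6 tested B cell markers, 1 was lower and 0 higher (median -0.65), and the lower gene, Ms4a1, gave 35.3, 33.7 and 45.8 in WT against 2.96, 2.68 and 10.2, with separate groups. Of these markers, 4 had a log2 fold change below 0 and 2 above it. The latter were Cd22 (0.94) and Blnk (1.26), both with overlapping groups. The 4 plasma cell markers summed to 2006, 30071 and 8377 in WT against 3188, 1546 and 1561, with 1 of 3 tested genes lower and 0 higher, and Jchain, the most abundant, reached 28803 in WT replicate 2; Sdc1 was at 0 in WT replicate 1. The 7 myeloid markers summed to 3250, 11722 and 5842 against 4413, 10237 and 2796, with 1 of 6 lower and 0 higher, led by Lyz2, and Itgam was at 0 in WT replicate 1. The 5 stromal or erythroid markers summed to 447, 1067 and 528 against 591, 513 and 2732, with 0 of 2 lower or higher and Pecam1 the most abundant. Hbb-bs was at 0 in WT replicates 1 and 3, Col1a1 in WT replicate 1 and Bach2-cKO replicates 1 and 3, and Col3a1 in WT replicates 1 and 2 and Bach2-cKO replicates 1 and 2. The part of such cells in the mitoribosomal result was not tested.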

How the data were processed

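RNA of sorted Tfh cells was amplified with the SMARTer Ultra Low kit and sequenced on a NextSeq500. Per the deposited table, the signal values are gene read counts that the authors divided by a size factor per library. The study's methods name Tophat2, HTSeq and DESeq2, whereas the submitters' processing notes name STAR 2.5.2b, R 3.5.1 and DESeq2 1.20.0 with build GRCm38, so the aligner is uncertain. Values were tested as log2(value + 1) with limma 3.58.1 (R 4.3.3), with trended variance and no replicate block, over 11296 genes with at least 10 in at least 3 libraries. All values were whole multiples of 1 step per library (100% within 0.1 of a whole number), and the reads so recovered from 5 libraries were tested with edgeR 4.0.16 and DESeq2 1.42.0, without WT replicate 1, whose step of 1.01 lies near a power of 10. The tests were tested on simulated data. Gene models were GENCODE M21 (14329 of 14744 symbols matched, 368 more by an older or newer symbol). Named genes were the 6 lowest and 6 highest log2 fold changes, genes with fixed roles, the 3 highest and 3 lowest levels per kilobase, 5 mitoribosomal genes under other symbols, the smallest p of each list on mitochondrial translation, Bach2, Cd4, Cxcr5 and Pdcd1. Other genes named come from the marker and pathway lists and were chosen after their values were seen. Members and lists were chosen with earlier results of these data known. Alternatives covered pseudocount, filter, normalization, variance model, length and GC content, replicate block, tool and single libraries.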

Additional observations from a re-analysis of the deposited data

How the results depend on the processing

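The median log2 fold change of the mitoribosomal genes stayed below 0 in every alternative run and within the spread between libraries. With a weight estimated for each library, 24 of the genes passed adjusted p 0.05, as did 4168 of all 11296 genes. In that fit 1 member passed adjusted p 0.01 and 2-fold, as did 1128 of all genes. There 29 members were lower and 2 higher at an unadjusted p under 0.05 (22.8% and 24.3% of all genes). WT replicate 1 had a weight of 0.206 against 5.54 for Bach2-cKO replicate 2. Genes lower at an unadjusted p under 0.05 were 9 with no variance trend (7.83% of all genes) and 10 with edgeR on recovered reads (8.77%). With the length and GC trend removed, 14 genes were lower and 4 higher with groups not overlapping (12.3% and 8.89% of all genes), and 2 were higher at an unadjusted p under 0.05 (5.02% of all genes; with the replicate block 1, against 4.61%). Genes higher with groups not overlapping were 4 with quantile normalization (13.4% of all genes), 2 with libraries rescaled to the same total (16.9%), 3 with edgeR (20.1%) and 2 with DESeq2 (19.2%). Leaving out 1 library gave 0 to 4 genes past adjusted p 0.05 (0 to 507 of all 11296 genes). At an unadjusted p under 0.05 it gave 6 to 29 lower (5.36% to 14.0% of all genes) and 0 to 2 higher (up to 13.1%). With groups not overlapping it gave 22 to 45 lower (14.0% to 23.0% of all genes) and 2 to 5 higher (17.0% to 27.2%). Removing the length and GC trend also moved the median of all genes from 0.08 to -0.04. The causes were not tested. The relation to coding length ran from -0.475 to -0.349 over alternatives that, like the levels per principal transcript, were chosen after seeing the data.

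Deviations of same-numbered libraries from their group means had correlations of -0.069, 0.116 and -0.039. With 3 libraries per group, these values cannot show whether same-numbered libraries were handled together, and the labels do not say. The replicate block left 11 genes lower at an unadjusted limma p under 0.05 (9.15% of all genes), 0 past adjusted p 0.05 and a median of -0.262.

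Over 38 named genes, 672 of the alternative values kept direction and call, 3 came past the thresholds (Bach2 and Mrrf with library weights, Bach2 with DESeq2) and 45 changed sign, in genes near 0 or low. With library weights the sign changed for Cxcr5 (-0.396), Mrpl48-ps (0.241), Mrpl54 (-0.0534), Mrps30 (0.0333) and Mrps36-ps1 (-0.383). With edgeR it changed for Mrpl48-ps (0.0192), Mrpl54 (-0.0159), Mrps21 (-0.0137) and Mrps30 (0.0435), and with DESeq2 for Mrpl48-ps (0.0082), Mrpl54 (-0.0411), Mrps21 (-0.0391) and Mrps30 (0.0208). With the length and GC trend removed, with or without the replicate block, it changed for Mrpl48-ps (0.303), Mrpl54 (-0.135) and Mrps12 (-0.00773). Mrpl48-ps was 0.0018 with pseudocount 0.5 and 0.0608 with libraries rescaled to the same total, and Mrps36-ps1 was -0.368 with quantile normalization. With 1 library left out, log2 fold changes ranged from -0.0491 to 0.136 for Aurkaip1, -0.0109 to 0.264 for Chchd1, -0.0661 to 0.332 for Cxcr5, -0.442 to 0.252 for Mrpl48-ps, -0.0813 to 0.0883 for Mrpl54, -0.174 to 0.133 for Mrps12, -0.0862 to 0.382 for Mrps18c, -0.00908 to 0.191 for Mrps21, -0.302 to 0.0381 for Mrps30 and -0.145 to 0.274 for Mrps36-ps1. The log2 fold changes of the low pseudogenes Mrpl48-ps and Mrps36-ps1 had SEs of 0.896 and 0.883.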
